A study of Arabidopsis thaliana with 12 samples.

Results

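Whole plantlets of Arabidopsis thaliana held at 4 °C were compared with plantlets held at 10 °C, the colder and the milder of a pair of chilling temperatures that both lie above freezing. The comparison took the 3 libraries of the 4 °C group and the 3 libraries of the 10 °C group, 6 of the 12 libraries in the series, and the rest came from 0 °C and from 22 °C, 3 each. All plantlets were of ecotype Columbia-0, the standard laboratory strain, carried no transgene or mutation that the labels name, and came from seeds that had spent 2 days at 4 °C before germination. They grew at 22 °C on agar with 0.2x Murashige and Skoog salts and 0.5% sucrose, under 16 h of light and 8 h of darkness, and were 14 days old when the cold began. Each library was made from total RNA of a pool of 10 plantlets from a plate, so that leaves, stems and roots were measured together. Sample labels put the cold at 24 h for both temperatures, but the series text lists 24, 48 and 72 h. Read in the order of the temperatures, that list would give 48 h to plantlets at 4 °C and 72 h to those at 10 °C, and temperature and duration then cannot be told apart. Neither the hour of harvest nor the number of chamber runs is stated in what was used here, and p-values therefore cover the spread between pools.

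Cold acclimation is the process by which a plant that has met low, non-freezing temperatures becomes able to survive frost. In Arabidopsis the CBF (also called DREB1) transcription factors are made within hours of a chill and bind a short DNA element in the promoters of cold-regulated genes, many of which encode hydrophilic proteins of the late embryogenesis abundant (LEA) kind or enzymes that make protective sugars. The circadian clock gates this response, and growth, photosynthesis and pigment synthesis are adjusted at the same time.

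The 6 libraries held between 33292666 and 41683299 estimated counts each. At 4 °C between 18126 and 18145 genes reached 1 CPM (1 count per 1000000 counts), and at 10 °C between 18893 and 18917 did. The 10 genes with the highest counts took 8.63% of counts at 4 °C and 6.02% at 10 °C on average, and TMM scaling factors, which correct levels for such differences in makeup, lay between 0.972 and 0.976 at 4 °C and rounded to 1.19 in each library at 10 °C. Transcripts assembled by the authors without a locus name took 11% to 11.2% of counts at 4 °C and 9.79% to 10.2% at 10 °C, and a gene whose reads were counted on such a transcript has a level that is too low here. Levels are given as CPM after TMM scaling, which does not correct for gene length, so they are compared between temperatures and not between genes. Markers of roots were present in both groups, with summed levels of 177.8 to 186.0 CPM at 10 °C and 159.5 to 170.4 CPM at 4 °C, whereas the markers of floral organs summed to at most 2.29 CPM in these libraries and those of seeds to at most 2.83 CPM.

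Of the 21293 genes tested, 12764 differed between 4 and 10 °C, which is 59.9% of them (edgeR's quasi-likelihood test, Benjamini-Hochberg adjusted p under 0.05). They split into 6318 genes higher at 4 °C, or 29.7% of those tested, and 6446 lower, or 30.3%. Each count of list members below uses TMM factors unless stated and is then to be read beside these shares. Most of these differences were small: the median size among the genes that differed was 0.58 on the log2 scale, and 9562 of them differed by less than 2-fold. At least 2-fold differences were found for 1490 genes higher at 4 °C, 7% of those tested, and for 1712 lower, 8.04%. Differences of at least 8-fold were found for 129 genes higher and 122 genes lower. Of 7258 loci that hold only assembled transcripts, 2041 differed (28.1%), 1316 of them higher at 4 °C and 725 lower. These loci have no gene names here. They were tested in a separate fit whose library sizes and TMM factors took in annotated and assembled loci together. The even split of the 12764 genes depends on the scaling. Of the differing genes, 49.5% were higher at 4 °C with TMM factors, 37.7% with upper-quartile factors and 24.1% when libraries were scaled by total counts alone. The last scaling gave 3423 genes higher and 10793 lower of the 21293 tested. List counts made with total counts alone are to be read beside these numbers. The median log2 fold change over all genes was -0.02 with TMM and moved by -0.12 and -0.29 under the other scalings, so a log2 fold change between 0 and about 0.3 has a sign that rests on the scaling. Below, a value with an SE that follows CPM values in brackets, or that is given alone for a gene, is a log2 fold change of 4 °C over 10 °C.

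The largest rises and falls, taken among genes that averaged 5 CPM or more over the 6 libraries and with no overlap between the groups, include genes of fermentation, sugar synthesis, cold protection and pigment synthesis. Of the 21293 genes tested, 9555 passed the test and met these conditions, so groups without overlap were common. ADH1, which encodes the alcohol dehydrogenase of ethanol fermentation, stood at 1388, 1393 and 1370 CPM in the 4 °C libraries and at 40.8, 37.8 and 39.6 CPM in the 10 °C libraries. Every 4 °C library was far above every 10 °C library, and the log2 fold change was 5.13 ± 0.03, a 35.1-fold difference (adjusted p = 6.24e-17). GOLS3, a galactinol synthase that catalyses the committed step towards raffinose, reached 2628, 2632 and 2636 CPM at 4 °C against 93.7, 89.2 and 91.6 CPM at 10 °C, a log2 fold change of 4.85 ± 0.03. The largest rise by this rule, AT2G24560, encodes a GDSL-like lipase per the RefSeq annotation and averaged 29.7 ± 2.86 CPM in the 4 °C libraries and 0.438 ± 0.0643 CPM in the 10 °C libraries, with a log2 fold change of 6.07 ± 0.14. The other rises by this rule were LEA4-5 and COR47, both described with the cold-regulated genes, HSP90.1, UGT78D3, PXMT1 (a methyltransferase family member), AT5G23950 (a protein with a calcium-dependent lipid-binding domain), AT4G30830, AT1G16850 and AT5G17460 (annotated as a glutamyl-tRNA amidotransferase subunit), with log2 fold changes between 4.14 and 4.65.

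NRT2.1, the main high-affinity nitrate uptake transporter of roots, was among the genes that fell most. It stood at 40.4, 37.6 and 38.1 CPM at 10 °C and at 1.80, 2.05 and 1.70 CPM at 4 °C, with no overlap and a log2 fold change of -4.39 ± 0.12 (adjusted p = 1.02e-11). AT1G20430, an uncharacterized gene, had 0 counts in each of the 3 libraries at 4 °C and 13.1, 12.3 and 13.0 CPM at 10 °C, so it was at least 123-fold lower, taking 3 counts per library as the floor. This gene lies next to COR47, which rose steeply, and reads of both could have been assigned to an assembled transcript, which cannot be told apart here. The other falls were DFR, CYP79B3 and EXPA8, described with their pathways, 3 genes for carriers (AT5G18840 and AT1G18010 of the major facilitator superfamily and AT2G04050 of the MATE efflux family), LBD4 (a LOB-domain transcription factor), CYP702A5 (a cytochrome P450), AT4G12735 and AT3G17998, with log2 fold changes between -3.48 and -4.52.

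**Figure D1:**
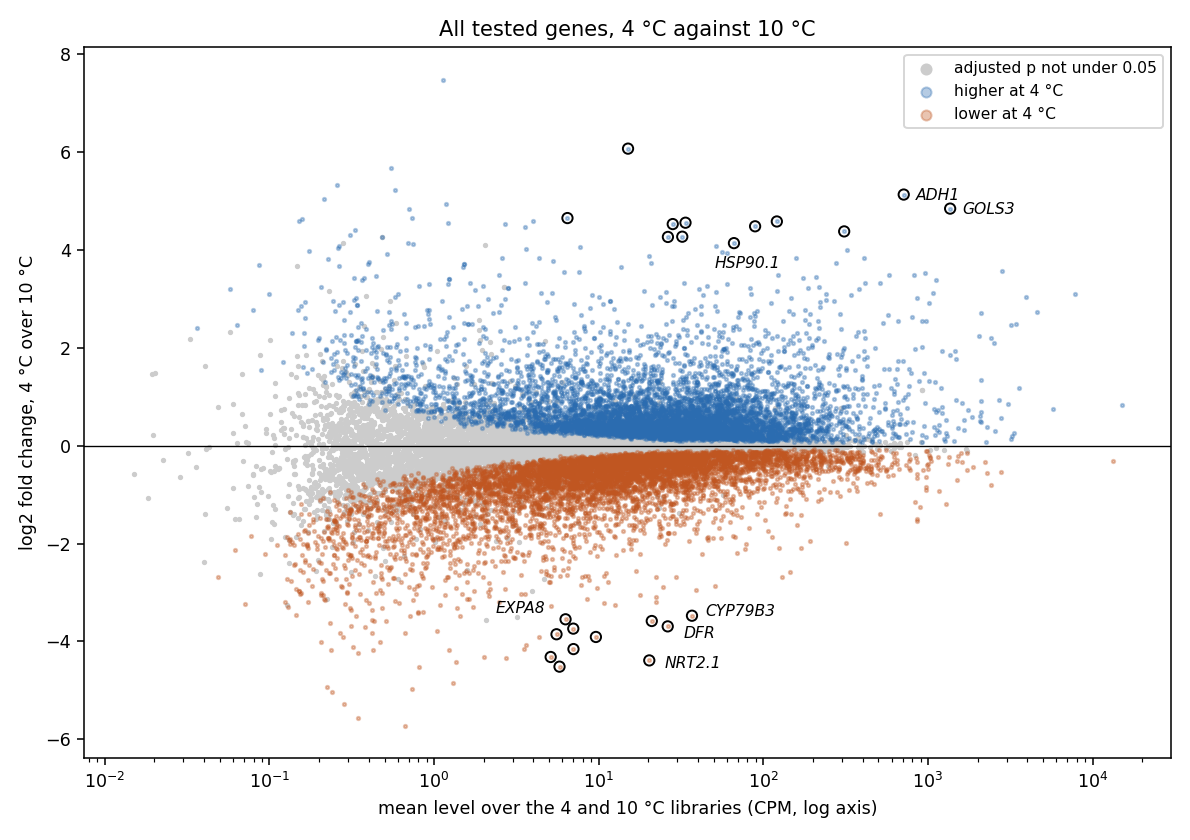
Mean level of each tested gene over the 4 and 10 °C libraries (x axis, CPM on a log axis) against its log2 fold change, 4 °C over 10 °C (y axis); genes with 0 counts in a group are left out. Blue and orange points have an adjusted p under 0.05, grey points do not, and circles mark the largest rises and falls; ADH1 and GOLS3 stand out as genes that are both abundant and far higher at 4 °C.

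The promoters of 5 genes with large differences are shown, and they differ in the cold and light elements they hold. GOLS3, ADH1 and NRT2.1 are 3 of the 6 genes with the highest rank among the rises and falls, and RD29A and COR15A were taken after their values were seen. The other 3 of the 6, AT2G24560, AT1G20430 and AT4G12735, hold none of the motifs in this window and are not printed. Each sequence is the 250 bases before the annotated gene start, read 5′ to 3′ on the gene's strand from the RefSeq assembly TAIR10.1. Capitals mark CCGAC (the core of the element bound by CBF factors, shown as GTCGG where it lies on the other strand), AAAATATCT (the evening element of the clock) or CACGTG (the G-box bound by bZIP and bHLH factors, a palindrome). The GOLS3 window is chr1:3019389-3019638 (+ strand), ADH1 is chr1:28975005-28975254 (+ strand), RD29A is chr5:21240467-21240716 (+ strand), COR15A is chr2:17712331-17712580 (- strand) and NRT2.1 is chr1:2523773-2524022 (+ strand).
GOLS3: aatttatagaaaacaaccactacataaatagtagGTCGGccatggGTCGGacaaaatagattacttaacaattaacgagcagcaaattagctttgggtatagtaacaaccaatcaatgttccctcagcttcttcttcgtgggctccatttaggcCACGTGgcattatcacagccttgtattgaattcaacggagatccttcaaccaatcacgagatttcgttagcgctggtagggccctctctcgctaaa
ADH1: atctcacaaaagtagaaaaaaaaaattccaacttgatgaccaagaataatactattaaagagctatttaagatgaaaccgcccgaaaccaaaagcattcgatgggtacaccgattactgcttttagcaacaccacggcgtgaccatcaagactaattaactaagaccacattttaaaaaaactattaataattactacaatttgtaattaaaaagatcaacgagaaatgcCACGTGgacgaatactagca
RD29A: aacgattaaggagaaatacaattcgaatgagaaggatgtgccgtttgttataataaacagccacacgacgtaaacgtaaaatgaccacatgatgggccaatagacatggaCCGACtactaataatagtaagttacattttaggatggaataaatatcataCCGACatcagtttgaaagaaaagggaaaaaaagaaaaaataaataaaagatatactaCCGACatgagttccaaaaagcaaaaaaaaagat
COR15A: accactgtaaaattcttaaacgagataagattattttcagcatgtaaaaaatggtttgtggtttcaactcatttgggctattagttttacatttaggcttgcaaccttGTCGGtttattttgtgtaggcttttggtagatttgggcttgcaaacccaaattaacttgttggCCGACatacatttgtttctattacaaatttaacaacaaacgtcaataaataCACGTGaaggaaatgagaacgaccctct
NRT2.1: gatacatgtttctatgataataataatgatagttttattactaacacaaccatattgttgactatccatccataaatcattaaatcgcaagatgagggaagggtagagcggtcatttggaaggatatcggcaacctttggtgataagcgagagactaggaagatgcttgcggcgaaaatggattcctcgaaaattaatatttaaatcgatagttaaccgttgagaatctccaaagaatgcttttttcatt
Counting back from the gene start, GOLS3 has CCGAC at -216 and -205 and the G-box at -96, RD29A has CCGAC at -140, -90 and -33, and COR15A has CCGAC at -142 and -79 and the G-box at -28. ADH1 has the G-box at -20 and no CCGAC in this window, and NRT2.1 has none of the 3 motifs. DFR and CYP79B3, both lower at 4 °C, were also searched after their values were seen and are not printed. DFR has the G-box at -14, and CYP79B3 has none of the 3 motifs. On both strands, CCGAC was found in 12.8% of the windows of tested genes, in 20.0% of those of genes at least 2-fold higher at 4 °C and in 9.96% of those at least 2-fold lower. For the evening element the shares were 2.53%, 6.0% and 1.63%, and for the G-box 7.37%, 12.1% and 6.94%. The motifs do not share letters beyond single bases at their ends, a match describes letters and not a bound site, and no test was made on these shares.

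All 4 of the CBF genes that were tested were higher at 4 °C than at 10 °C, and the difference was largest for CBF2 among the 3 cold-inducible ones. CBF2 was found at 52.5, 53.3 and 57.5 CPM in the 4 °C libraries and at 10.3, 10.4 and 10.48 CPM in the 10 °C libraries, a log2 fold change of 2.39 ± 0.07 (adjusted p = 1.92e-11). CBF3 measured 98.5, 98.8 and 98.7 CPM in plantlets at 4 °C and 42.5, 42.2 and 43.5 CPM in plantlets at 10 °C, with a log2 fold change of 1.21 ± 0.07. For CBF1 the values were 6.88, 7.32 and 7.98 CPM and 3.94, 4.73 and 4.70 CPM, with 0.73 ± 0.13. None of the 3 genes had overlapping groups, and CBF1 had the smallest difference. The 3 genes lie side by side on chromosome 4 and are similar in sequence, so the split of reads between them is uncertain. At 22 °C the means of CBF2, CBF3 and CBF1 were 1.51, 2.84 and 0.281 CPM. Both cold groups stood above the warm one, and the log2 fold changes at 10 °C against 22 °C were 2.79, 3.92 and 4.00. The comparisons with 22 °C share their cold libraries with the comparison of 4 and 10 °C. CBF4, a drought-responsive relative, was higher at 4 °C at a level of 0.334 ± 0.0240 CPM, and DDF1 and DDF2 were too low to test.

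The other early cold transcription factors moved together: all 13 of 13 were higher at 4 °C, with a median log2 fold change of 1.29 against -0.02 over all tested genes. The zinc finger gene ZAT6 had 140.4, 151 and 163 CPM in the libraries at 4 °C and 19.6, 15.9 and 17.1 CPM in those at 10 °C, a log2 fold change of 3.11 ± 0.08. ZAT10, another zinc finger repressor of stress responses, had a log2 fold change of 2.57 ± 0.05, the AP2 factor DEAR1 of 2.28 ± 0.09 and the ethylene response factor ERF5 of 2.06 ± 0.09. The smallest difference was that of the cytokinin response factor CRF2, at 0.47 ± 0.06, and 12 of the 13 were also called with total counts alone. Among genes that act on the CBF genes, 9 of 15 tested were higher at 4 °C and 1 was lower, but with total counts alone 4 were higher and 6 lower. MYB15, a repressor of CBF genes, rose most, from 0.373 ± 0.160 to 3.57 ± 0.589 CPM (log2 fold change 3.26 ± 0.36). ICE1, a bHLH activator of CBF3, was 1.39-fold higher at 4 °C, with 62.8, 61.7 and 64.5 CPM against 45.2, 45.1 and 45.3 CPM. The member that fell was PIF4, a bHLH factor that promotes elongation in warmth, at 7.82, 5.93 and 6.34 CPM in the 4 °C libraries and 25.8, 26.3 and 25.3 CPM in the 10 °C libraries, a log2 fold change of -1.94 ± 0.09. PIF4 stood at 93.6 ± 3.25 CPM at 22 °C.

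Cold-regulated and LEA genes were the list with the largest median. Of 21 tested, 19 were higher at 4 °C and 1 lower, with a median log2 fold change of 2.72, and their summed level was 44177 to 46530 CPM at 4 °C against 6273 to 6489 CPM at 10 °C. RD29A, a hydrophilic protein gene long used as a marker of cold and drought, was found at 14118, 14393 and 13714 CPM in the 4 °C libraries and at 1641, 1643 and 1623 CPM in the 10 °C libraries. The groups lay far apart, with a log2 fold change of 3.11 ± 0.04, an 8.60-fold difference (adjusted p = 1.82e-14). COR15A, whose product protects chloroplast membranes during freezing, measured 6827, 6896 and 7459 CPM in plantlets at 4 °C and 878, 875 and 819.7 CPM in plantlets at 10 °C, a log2 fold change of 3.04 ± 0.06. At 22 °C, RD29A averaged 94.2 ± 5.17 CPM and COR15A 58.7 ± 5.15 CPM, so plantlets at 10 °C already stood well above warm ones and plantlets at 4 °C stood higher again.

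Within the list the size of the difference varied widely. LEA4-5, a group 4 LEA protein, had the largest log2 fold change, 4.58 ± 0.07, with 216, 231 and 248 CPM at 4 °C against 9.74, 9.48 and 9.76 CPM at 10 °C. The dehydrin COR47 followed with 4.48 ± 0.22, at 198, 153 and 161 CPM against 6.27, 8.67 and 7.96 CPM. Reads of this gene could also have been counted on an assembled transcript. COR27, which links cold to the clock, had 3.83 ± 0.05, the dehydrin LTI30 3.56 ± 0.05 and LEA14 3.54 ± 0.05. The membrane protein gene COR413-PM1 had 2.72 ± 0.04, whereas COR413IM2 of the chloroplast inner membrane had 0.94 ± 0.04. The exceptions were LEA7, which was lower at 4 °C, 12.8 ± 0.651 against 20.8 ± 0.0404 CPM (log2 fold change -0.71 ± 0.06), and RAB18, an abscisic acid-responsive dehydrin at 52.0 ± 4.74 and 50.9 ± 1.99 CPM. The log2 fold change of RAB18, 0.03 ± 0.07, did not pass the test (adjusted p = 0.746), although with total counts alone it was -0.26 and did.

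**Figure D2:**
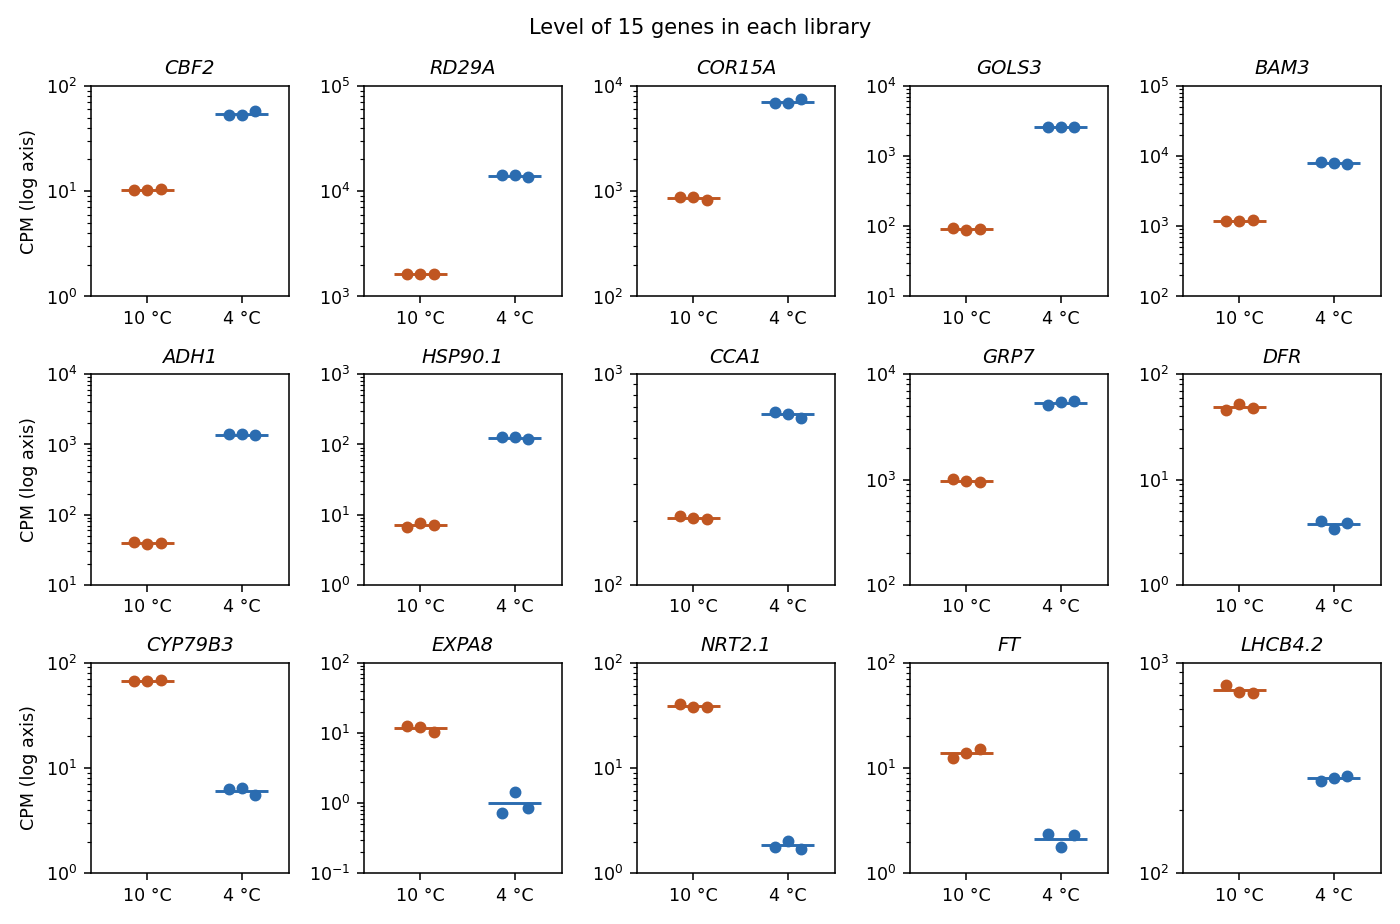
Level of 15 genes in each of the 3 libraries at 10 °C (orange) and at 4 °C (blue), in CPM on a log axis; points are libraries and lines are means. The first 9 genes were higher in every library at 4 °C and the last 6 were lower, and no gene had overlapping groups. The genes were chosen with their values known. Of the 21293 genes tested, 9555 passed the test, averaged 5 CPM or more and had no overlap.

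Genes of raffinose synthesis, starch breakdown and sucrose turnover were higher at 4 °C for 14 of 25 and lower for 6, with the largest differences in a few of them. GOLS1 and GOLS4, further galactinol synthases, had log2 fold changes of 2.70 ± 0.04 and 2.85 ± 0.05, while GOLS2, the drought-responsive copy, was slightly lower at 4 °C (-0.36 ± 0.08). RS5, raffinose synthase, averaged 346 ± 18.0 CPM in the 4 °C group and 113 ± 4.63 CPM in the 10 °C group (log2 fold change 1.61 ± 0.05). BAM3, the plastid beta-amylase that releases maltose from starch, had 8148, 8019 and 7768 CPM in the libraries at 4 °C and 1203, 1187 and 1220 CPM in those at 10 °C, a log2 fold change of 2.73 ± 0.02. SEX1, the glucan water dikinase that starts starch degradation, was 2.96-fold higher. SUS1, sucrose synthase, rose by 3.45 ± 0.28 on the log2 scale with more spread, from 31.9, 26 and 47.6 CPM at 10 °C to 448, 435 and 268 CPM at 4 °C. SPS2F, sucrose phosphate synthase, rose by 3.01 ± 0.07. SUS4, another sucrose synthase, was lower at 4 °C, with 1.15 ± 0.155 against 2.67 ± 0.115 CPM (-1.21 ± 0.16). BAM5, a phloem beta-amylase, fell from 1.71 ± 0.434 to 0.221 ± 0.114 CPM, and the debranching enzyme ISA3 had -0.51 ± 0.05. With total counts alone 10 of the 25 genes were higher and 9 lower.

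Of 13 sugar transporters 4 were higher at 4 °C and 7 lower, beside 29.7% and 30.3% over all tested genes. Total counts alone gave 4 higher and 9 lower, beside 3423 and 10793 of the 21293 genes tested. The tonoplast carrier genes went opposite ways: TST2 averaged 209 ± 5.12 CPM in the 4 °C group and 101 ± 1.66 CPM in the 10 °C group (log2 fold change 1.05 ± 0.07), and TST1 averaged 69.5 ± 2.86 and 128 ± 3.17 CPM (-0.89 ± 0.05). The sucrose carrier SUC1 had -0.97 ± 0.05 and the vacuolar fructose facilitator SWEET17 -0.81 ± 0.07, while the phloem-loading exporter SWEET12 had 0.67 ± 0.05. In proline metabolism 4 of 9 genes were higher and 4 lower with TMM factors, and 2 and 6 with total counts alone. P5CS2, a copy of the enzyme of the rate-limiting step of proline synthesis, was found at 2111, 2070 and 1942 CPM in the 4 °C libraries and at 197, 189.6 and 203 CPM in the 10 °C libraries, a log2 fold change of 3.38 ± 0.04. Its mean at 22 °C was 173 ± 5.17 CPM. P5CS1, the stress-responsive copy, had 1.63 ± 0.04, and P5CR, the next enzyme, had -0.35 ± 0.05. P5CS1 averaged 491 ± 18.6 CPM at 22 °C, 142.5 ± 2.29 CPM at 10 °C and 440 ± 19.1 CPM at 4 °C, so its level at 10 °C was the low one.

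Flavonoid genes moved in both directions. Of 20 enzymes and transfer genes tested, 12 were higher at 4 °C and 6 lower, with a median of 0.67 (11 and 8 with total counts alone), and no test compared the branches. Among entry and common steps PAL2, phenylalanine ammonia-lyase, had a log2 fold change of 1.94 ± 0.05, chalcone synthase CHS 0.92 ± 0.03, chalcone isomerase CHI 1.55 ± 0.05 and flavanone hydroxylase F3H 1.73 ± 0.05. The entry enzyme 4CL1, a coumarate-CoA ligase, was lower, at 113 ± 3.97 against 210.2 ± 1.93 CPM (-0.89 ± 0.04), and its relative 4CL3 was higher (1.25 ± 0.05). F3H measured 1044, 1110 and 1085 CPM in plantlets at 4 °C and 333, 324 and 321 CPM in plantlets at 10 °C. In the flavonol branch, the flavonol synthase FLS1 had 568, 575 and 574 CPM in the 4 °C libraries and 225, 217 and 223 CPM in the 10 °C libraries (1.37 ± 0.06). The glucosyltransferase UGT78D2, which acts on anthocyanidins as well as flavonols, averaged 499.5 ± 7.84 and 95.9 ± 2.50 CPM (2.38 ± 0.03). The flavonol arabinosyltransferase UGT78D3 had 55.8, 50.6 and 55.4 CPM and 1.83, 2.43 and 2.76 CPM (4.53 ± 0.13). The exception there was the rhamnosyltransferase UGT78D1, at 77.5 ± 4.52 and 79.3 ± 8.36 CPM, which did not pass the test with TMM factors (it did with total counts alone, at -0.32). UGT78D1, UGT78D2 and UGT78D3 are similar neighbours, so their counts share this uncertainty.

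Other enzymes that lead to anthocyanins were lower at 4 °C. DFR, dihydroflavonol reductase, stood at 45.8, 52.0 and 48.3 CPM at 10 °C and at 4.03, 3.36 and 3.86 CPM at 4 °C, with a log2 fold change of -3.69 ± 0.13 (adjusted p = 1.19e-10). LDOX, anthocyanidin synthase, stood at 37.9, 42.5 and 39.7 CPM at 10 °C and 4.17, 5.13 and 4.84 CPM at 4 °C (-3.09 ± 0.14). No library at 4 °C came near the 10 °C group for either gene. The anthocyanin-modifying enzymes UGT79B1, UGT75C1 and 5MAT had log2 fold changes of -2.29, -1.73 and -1.34, while GSTF12 (TT19), which carries anthocyanins towards the vacuole, had 0.32 ± 0.08. At 22 °C DFR averaged 2.93 ± 0.366 CPM and LDOX 2.33 ± 0.524 CPM, so the level at 10 °C was the high one, and at 4 °C the log2 fold changes against 22 °C were 0.36 ± 0.14 and 1.01 ± 0.16.

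Of 11 regulators of these branches 4 were higher at 4 °C and 5 lower (3 and 5 with total counts alone). MYB12, an activator of flavonol genes, had 36.8, 39.5 and 37.9 CPM in the libraries at 4 °C and 2.26, 2.88 and 2.65 CPM in those at 10 °C (3.87 ± 0.08), and MYB111 had 1.92 ± 0.12. HY5, a bZIP factor of light signalling, had 1.91 ± 0.07. The anthocyanin activators MYB75 and MYB90 were lower: MYB75 was found at 4.25, 4.09 and 4.84 CPM in the 4 °C libraries and at 13.9, 14.6 and 13.4 CPM in the 10 °C libraries (-1.66 ± 0.13), and MYB90 had -2.31 ± 0.28. Their bHLH partners TT8 and EGL3 had -0.64 ± 0.20 and -0.80 ± 0.12. MYB75 and MYB90 are similar copies, so the split of reads between them is uncertain. MYBL2, a repressor of anthocyanin genes, had 0.24 ± 0.04 with TMM factors, but with total counts alone its sign changed and it did not pass (-0.05). GSTF12 did not pass with total counts alone either (log2 fold change 0.03), and TT8 no longer passed without replicate 2 of the 10 °C group (-0.45) or without replicate 1 of the 4 °C group (-0.52).

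**Figure D3:**
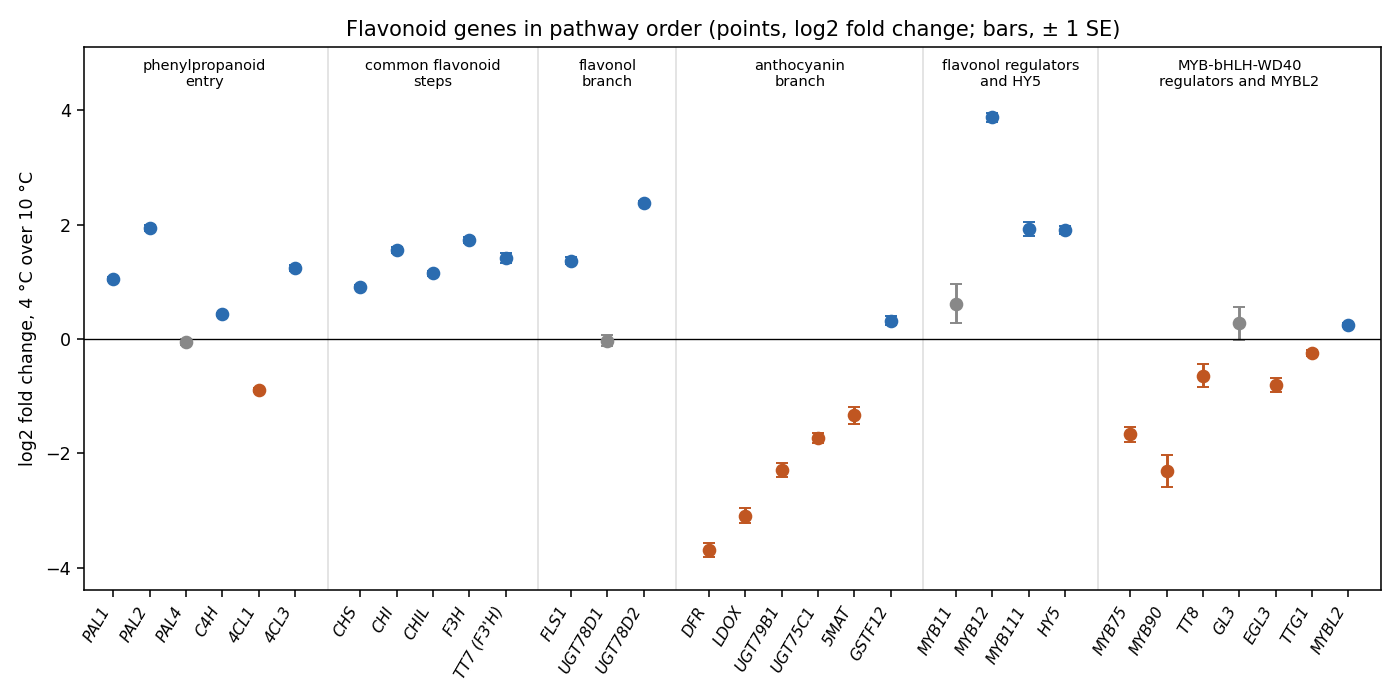
Log2 fold change, 4 °C over 10 °C (y axis), of flavonoid genes in pathway order (x axis); points are fitted values and bars are ± 1 SE, with grey points not passing the adjusted p threshold. Entry, common and flavonol genes sit mostly above 0, and DFR to 5MAT sit below it, as do MYB75 and MYB90.

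Glucosinolate genes, which make the sulfur-rich defence compounds of the cabbage family, were lower at 4 °C for 14 of 18 tested and higher for 2, with a median log2 fold change of -0.96. The 3 largest falls were those of the indolic genes CYP79B3, CYP79B2 and CYP83B1, although no test compared the branches. CYP79B3, which turns tryptophan into indole-3-acetaldoxime, measured 6.27, 6.45 and 5.49 CPM in plantlets at 4 °C and 67.0, 66.8 and 68.9 CPM in plantlets at 10 °C, a log2 fold change of -3.48 ± 0.07. Its partner CYP79B2 had -2.87 ± 0.06, the next enzyme CYP83B1 -2.69 ± 0.04 and the indolic regulator MYB34 -1.62 ± 0.08. In the aliphatic branch, the sulfotransferase SOT17 had -1.63 ± 0.07, CYP79F2 -1.51 ± 0.05, CYP79F1 -0.59 ± 0.05 and the regulator MYB28 -1.23 ± 0.06. Another aliphatic regulator, MYB29, went against the list with 0.49 ± 0.09, as did the indolic regulator MYB51, at 3.64 ± 0.365 CPM at 4 °C, with 0.50 ± 0.15, and neither passed the test with total counts alone. At 22 °C CYP79B3 averaged 51.4 ± 2.48 CPM, near its level at 10 °C (log2 fold change 0.40 ± 0.06 at 10 °C against 22 °C).

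Genes of light harvesting were mixed, with 11 of 21 antenna genes higher at 4 °C and 7 lower with TMM factors. Over all tested genes the shares were 29.7% and 30.3%. With total counts alone 7 antenna genes were higher and 11 lower, beside 3423 and 10793 of the 21293 genes tested. LHCB4.2, a minor antenna protein of photosystem II, had 274, 282 and 290.1 CPM in the libraries at 4 °C and 787, 724 and 718 CPM in those at 10 °C, a log2 fold change of -1.40 ± 0.04. LHCB2.2 and LHCB2.3, copies of the major antenna protein, had -1.54 ± 0.03 and -1.13 ± 0.04, and LHCB6 had -1.07 ± 0.07. The major antenna gene LHCB1.2 was found at 3402, 3571 and 3679 CPM in the 4 °C libraries and at 1952, 1864 and 1781 CPM in the 10 °C libraries (0.93 ± 0.04), and LHCB5 had 0.85 ± 0.03. LHCB1 and LHCB2 genes are near-identical copies, so single values are uncertain. LHCB4.2 averaged 3018 ± 66.9 CPM at 22 °C, above both cold groups. The summed level of the 21 genes was 35986 to 37852 CPM at 10 °C and 51799 to 54826 CPM at 4 °C, carried by its most abundant members.

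Calvin cycle genes were lower at 4 °C for 14 of 19 tested and higher for 3, with a median of -0.31 (16 and 1 with total counts alone). RBCS2B and RBCS1B, small subunits of Rubisco, fell most: RBCS2B measured 454, 428 and 462 CPM in plantlets at 4 °C and 1223, 1284 and 1296 CPM in plantlets at 10 °C (-1.50 ± 0.04), and RBCS1B had -1.20 ± 0.04. RBCS1A, the most abundant copy by CPM, had -0.31 ± 0.04, and RBCS3B went the other way with 0.84 ± 0.07, although these copies are near-identical. Among the other enzymes, GAPA2 had -0.83 ± 0.03, the aldolase FBA2 -0.81 ± 0.03 and sedoheptulose bisphosphatase SBPASE -0.59 ± 0.02. Chlorophyll synthesis genes were lower for 13 of 19 and higher for 4, with a median of -0.32 (16 and 1 with total counts alone). PORA, a protochlorophyllide oxidoreductase, had -0.94 ± 0.22 at about 1.67 ± 0.573 CPM, chlorophyllide a oxygenase CAO -0.63 ± 0.04 and CHLM -0.61 ± 0.04, while GUN4, an activator of magnesium chelatase, had 0.50 ± 0.03. Of 24 nuclear photosystem and electron transport genes, 14 were higher and 6 lower with TMM factors, and 9 higher and 11 lower with total counts alone. ELIP1, an early light-induced protein that binds pigments under stress, was 2.28-fold higher at 4 °C, with 1662 ± 68.1 against 729.7 ± 12.8 CPM.

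Clock genes were higher at 4 °C for 20 of 25 and lower for 3, with a median log2 fold change of 0.83, among both morning and evening genes. CCA1, a morning MYB factor of the core loop, had 665, 649 and 619 CPM in the libraries at 4 °C and 211, 207 and 206 CPM in those at 10 °C (1.63 ± 0.04). Its partner LHY had 206, 193 and 179.5 CPM and 149, 149 and 150.0 CPM (0.37 ± 0.07, adjusted p = 6.35e-04). The LHY groups did not overlap, but with total counts alone the log2 fold change was 0.08 and did not pass the test. TOC1, the evening repressor of both, was found at 115, 104 and 109 CPM in the 4 °C libraries and at 65.2, 61.8 and 59.9 CPM in the 10 °C libraries (0.81 ± 0.06). The evening genes GI and ELF4 had 1.82 ± 0.09 and 1.53 ± 0.06, the morning gene PRR9 1.73 ± 0.07, LNK3, of a family of clock coactivators, 1.89 ± 0.04 and RVE1, which links the clock to auxin, 2.34 ± 0.06. The 3 that went down were PRR7 (-0.59 ± 0.09), the TCP factor CHE (-0.95 ± 0.08) and RVE8, an activator of evening genes. RVE8 had 0 counts in each 4 °C library and 5.28, 3.09 and 5.03 CPM at 10 °C, so it was at least 42.9-fold lower. The list's median is the same with RVE8 at that bound. At 0 °C RVE8 averaged 0.553 ± 0.654 CPM. Its reads could also have been counted on an assembled transcript, so a loss of RVE8 RNA and such an assignment cannot be told apart here. A shift in the time of the daily peaks and a change in level cannot be told apart with 1 time point.

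Transcript usage, the share of a gene's level held by each of its transcripts, differed for 141 of 4532 genes tested, which is 3.11% (edgeR's diffSpliceDGE, Benjamini-Hochberg adjusted p under 0.05), and 523 genes had an unadjusted p under 0.05. LHY was among the genes that differed (adjusted p = 0.0299). Its transcript 1 held 52.4%, 59.4% and 54.5% of the LHY level at 10 °C and 28.6%, 27.8% and 29.2% at 4 °C, whereas transcript 2 held 13.5%, 11% and 13.7% at 10 °C and 40.3%, 34.9% and 31.0% at 4 °C. The groups did not overlap for either transcript. While the gene's total was 1.29-fold higher at 4 °C, the level of transcript 1 was 83.1 ± 5.50 CPM at 10 °C and 54.8 ± 3.54 CPM at 4 °C (SD, n = 3), and that of transcript 2 was 19.1 ± 2.27 and 68.4 ± 13.8 CPM. The LHY call was not stable: without any 1 of the 6 libraries its adjusted p was between 0.0594 and 0.224, while a fit of the 6 libraries alone gave 1.04e-05. The number of genes called also fell without single libraries, to 69, 70 and 73 without replicates 1, 2 and 3 of the 10 °C group and to 88, 79 and 80 without those of the 4 °C group. CCA1 showed no such call (adjusted p = 0.417), with transcript 1 at 75.9% ± 0.919 at 10 °C and 65.9% ± 10.8 at 4 °C, nor did PRR9 or GRP7 (adjusted p = 1 each). PRR7 and TOC1 had too few transcripts past the filter to be tested.

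**Figure D4:**
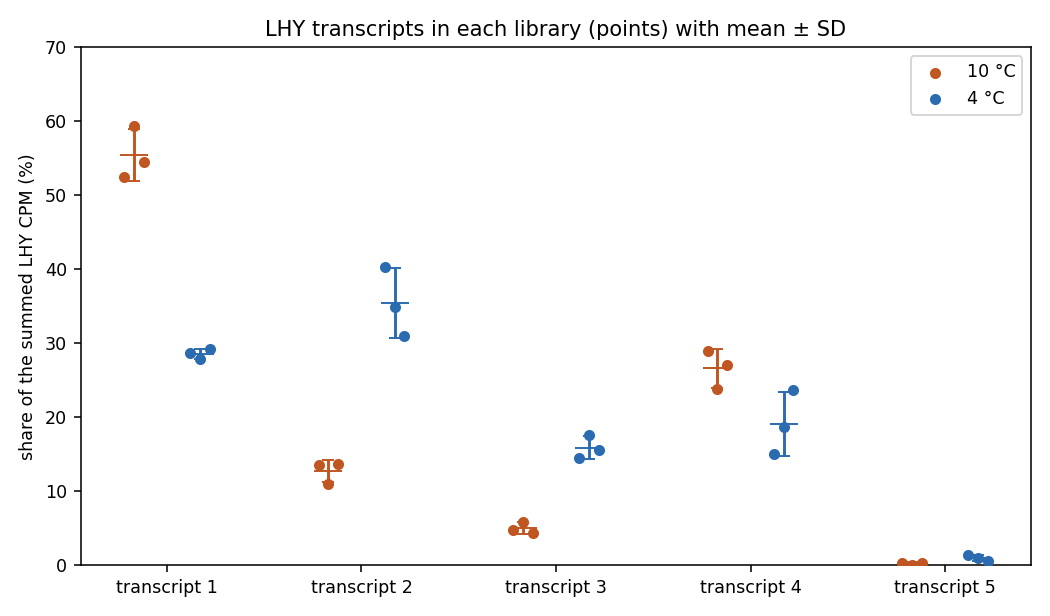
Share of the summed CPM of LHY held by each of its 5 transcripts (x axis, numbered as in the deposited table) in the libraries at 10 °C (orange) and 4 °C (blue), in percent; points are libraries, horizontal marks are means and bars are ± SD over 3 libraries. Transcript 1 falls from 55.4% to 28.6% and transcript 2 goes from 12.7% to 35.4%.

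The genes with the smallest usage p-values were FBA1, RCA, THIC, CAT2 and HEME1, and each kept its call without any 1 library. In THIC, an enzyme of thiamine synthesis controlled by a riboswitch, transcript 1 held 70.3% ± 2.09 at 10 °C and 84.1% ± 1.21 at 4 °C. In HEME1, a uroporphyrinogen decarboxylase of the tetrapyrrole pathway, transcript 1 held 33.0% ± 0.994 at 10 °C, 55.2% ± 3.84 at 4 °C and 69.0% ± 1.01 at 22 °C. For the plastid aldolase FBA1 the minor transcript 2 went from 1.29% ± 0.160 to 4.2% ± 0.264, and for the catalase CAT2 transcript 2 went from 0.853% ± 0.0163 to 1.57% ± 0.142. These last shifts were small parts of abundant genes. RCA, Rubisco activase, showed transcript 3 at 78.1% ± 7.22 at 10 °C and 29.4% ± 9.79 at 4 °C, but its level over all annotated transcripts, 53.0 ± 3.47 and 83.7 ± 28 CPM, is low for this gene, and reads on assembled transcripts could not be added. Estimated counts divide reads between transcripts that share exons, so shares carry more uncertainty than gene levels.

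Growth genes divided by family. All 11 expansins of the alpha and beta kind, proteins that loosen the cell wall for expansion, were lower at 4 °C, while all 3 expansin-like A genes were higher, so the list had 11 of 14 lower, 3 higher and a median of -1.74. EXPA8 stood at 0.718, 1.46 and 0.850 CPM at 4 °C, at 12.5, 11.9 and 10.2 CPM at 10 °C and at 188 ± 1.51 CPM at 22 °C, with a log2 fold change between the cold groups of -3.55 ± 0.16. EXPB1 had -3.03 ± 0.20, EXPB3 -2.12 ± 0.06 and EXPA4 -1.92 ± 0.05. EXLA2, an expansin-like gene, measured 49.0, 48.1 and 49.4 CPM in plantlets at 4 °C and 7.56, 6.50 and 6.22 CPM in plantlets at 10 °C (2.85 ± 0.07), and EXLA1 and EXLA3 had 2.33 ± 0.07 and 2.13 ± 0.18. The xyloglucan-modifying XTH genes had 6 of 12 lower and 3 higher, beside 30.3% and 29.7% over all tested genes. Total counts alone gave 9 lower and 3 higher, beside 10793 and 3423 of the 21293 genes tested. Among the XTH genes, XTH15 had -3.30 ± 0.17, XTH31 -2.08 ± 0.05 and XTH23 1.57 ± 0.18. XTH31 stood at 201 ± 2.86 CPM at 10 °C, 47.5 ± 2.25 CPM at 4 °C and 77.9 ± 3.25 CPM at 22 °C.

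Aquaporins had 8 of 18 lower and 5 higher with TMM factors, but 14 and 3 with total counts alone. Over all 21293 tested genes 30.3% were lower and 29.7% higher with TMM factors, and 10793 were lower and 3423 higher with total counts alone. PIP1;1, a plasma membrane water channel, had 73.0, 75.4 and 76.1 CPM in the libraries at 4 °C and 202, 190.4 and 199.7 CPM in those at 10 °C (-1.40 ± 0.03), and PIP2;2 had -1.15 ± 0.04. PIP2;6 went the other way, with 668, 667 and 698 CPM at 4 °C and 149.9, 147 and 145 CPM at 10 °C (2.2 ± 0.04). Among gibberellin genes 10 of 21 were higher and 6 lower with TMM factors, and 7 higher and 11 lower with total counts alone. Of the genes that make active gibberellin, GA3OX1 had 1.69, 2.12 and 2.13 CPM in the 4 °C libraries and 11.9, 10.7 and 10.6 CPM in the 10 °C libraries (-2.49 ± 0.18). GA20OX1 also fell (-1.62 ± 0.16), although GA3OX2 rose (1.17 ± 0.13). GA2OX1 and GA2OX6, which inactivate gibberellin, had 1.45 ± 0.11 and 1.11 ± 0.08, GA2OX8 had -1.62 ± 0.23, and the DELLA repressor RGL3 had 1.58 ± 0.08 while GAI had -1.16 ± 0.08. Early auxin response genes were lower for 8 of 14 and higher for 3 (11 and 1 with total counts alone), with IAA4 at -1.20 ± 0.06, IAA1 at -0.63 ± 0.08 and IAA3 at 0.58 ± 0.05. Cell division genes mostly did not pass the test with TMM factors: 13 of 20 did not. There 4 were lower, among them CYCD3;1, a cyclin that drives entry into the cycle (-0.96 ± 0.10), and 3 mitotic genes were slightly higher. Total counts alone gave 0 higher and 9 lower of the 20, beside 3423 and 10793 of the 21293 genes tested.

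Heat shock genes were higher at 4 °C for 16 of 21 tested and lower for none, with a median of 1.22. HSP90.1, a cytosolic chaperone that heat induces, was found at 129, 127 and 120.2 CPM in the 4 °C libraries and at 6.62, 7.63 and 7.08 CPM in the 10 °C libraries (4.14 ± 0.05, adjusted p = 2.78e-14), against 8.12 ± 0.203 CPM at 22 °C. HSP70-4, an inducible HSP70, measured 527, 526 and 485 CPM in plantlets at 4 °C and 40.1, 36.5 and 38.5 CPM in plantlets at 10 °C (3.74 ± 0.05). The disaggregase HSP101 had 2.1 ± 0.04 and the small heat shock protein HSP17.6A 2.21 ± 0.15, while the factors HSFA1A and HSFA3 did not pass the test, with 0.03 ± 0.13 and -0.23 ± 0.25. The constitutive HSP70-1 was 2.27-fold higher at 4 °C, and HSP90 and HSP70 copies share sequence, so part of the split between them is uncertain.

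RNA-binding genes of the cold-shock and glycine-rich kinds were higher for 8 of 10 and lower for none, and with total counts alone 6 were higher and 1 lower. GRP7, a glycine-rich RNA chaperone under clock control, had 5138, 5396 and 5562 CPM in the libraries at 4 °C and 1008, 969 and 951 CPM in those at 10 °C (2.46 ± 0.05), while its relative GRP8 had 0.75 ± 0.05. The cold-shock domain genes CSP3 and CSP4 had 0.62 ± 0.05 and 0.73 ± 0.06. Ribosome biogenesis factors were higher for 12 of 23 and lower for 5 with TMM factors, but for 7 and 10 with total counts alone, and their summed levels were near each other, 3668 to 3764 CPM at 10 °C and 3813 to 3909 CPM at 4 °C. REIL2, a cytosolic factor of large ribosomal subunit maturation needed for growth in the cold, was the largest rise, with 0.93 ± 0.04.

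Abscisic acid signalling genes were higher at 4 °C for 11 of 15 and lower for 4, the 4 being receptors. The bZIP factor ABF1 had 1.78 ± 0.05, the phosphatases PP2CA, ABI2 and ABI1 1.27, 1.25 and 1.22, and the receptors PYL5 and PYR1 -0.97 ± 0.06 and -0.78 ± 0.07. In synthesis and breakdown 7 of 11 were higher and 2 lower with TMM factors, and 5 and 4 with total counts alone. NCED3, the rate-limiting enzyme of synthesis under stress, was found at 50.1, 51.7 and 46.1 CPM in the 4 °C libraries and at 18.6, 19.0 and 17.44 CPM in the 10 °C libraries (1.43 ± 0.06). CYP707A1, which breaks the hormone down, had 70.3, 72.4 and 65.7 CPM and 12.6, 13.6 and 15.5 CPM (2.32 ± 0.08). Jasmonate genes were mixed, with 9 of 21 higher and 7 lower by TMM, beside 29.7% and 30.3% over all tested genes. By total counts alone 7 were higher and 10 lower. The repressor JAZ1 had 1.67 ± 0.05 and the enzyme AOC1 -1.06 ± 0.07. Among salicylate genes 5 of 12 were higher and 2 lower with TMM factors, beside 29.7% and 30.3% over all tested genes, and with total counts alone 4 were higher and 4 lower. ICS1, the main enzyme of salicylate synthesis, had 0.967, 1.11 and 1.41 CPM in the 4 °C libraries and 6.17, 5.36 and 4.12 CPM in the 10 °C libraries (-2.17 ± 0.25), and PAD4, a regulator of defence, had a log2 fold change of 1.16 ± 0.16.

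Membrane lipid genes were higher at 4 °C for 11 of 18 and lower for 5 with TMM factors, and with total counts alone for 7 and 6. ADS2, a desaturase needed for chilling tolerance, measured 952, 909 and 860.0 CPM in plantlets at 4 °C and 354, 351 and 352 CPM in plantlets at 10 °C (1.37 ± 0.03). FAD4, which acts on plastid phosphatidylglycerol, had 1.26 ± 0.05 and the galactolipid synthase DGD1 0.99 ± 0.05. FAD8, the plastid desaturase known for its activity at low temperature, was lower at 4 °C, with 67.3, 60.4 and 63.3 CPM against 104, 103 and 98.2 CPM (-0.68 ± 0.05), and stood at 60.5 ± 2.83 CPM at 22 °C. Antioxidant enzymes had 7 of 17 higher and 6 lower by TMM, beside 29.7% and 30.3% over all tested genes. By total counts alone 6 were higher and 11 lower. The catalases rose, CAT1 by 1.18 ± 0.05 and CAT3 by 0.72 ± 0.03, while the stromal ascorbate peroxidase SAPX had -0.55 ± 0.04.

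Of the low-oxygen list, the fermentation enzymes stood out: ADH1, given above, and PDC1, pyruvate decarboxylase, at 616, 603 and 594 CPM in the 4 °C libraries and 37.2, 36.9 and 38.6 CPM in the 10 °C libraries (4.01 ± 0.04), with PDC2 at 0.93 ± 0.03. HRE1, a transcription factor of the response, was slightly higher with TMM factors (0.36 ± 0.10), but it did not pass with upper-quartile factors (0.24) or with total counts alone (0.07). HB1, a haemoglobin, had 3.87, 3.43 and 4.32 CPM in the libraries at 4 °C and 8.83, 9.83 and 9.79 CPM in those at 10 °C (-1.29 ± 0.13), and PCO1, a plant cysteine oxidase, had a log2 fold change of -1.94 ± 0.20. LBD41 and HRE2, further transcription factors of the response, had -0.25 ± 0.14 and -0.05 ± 0.23 and did not pass the test, although LBD41 did with total counts alone (-0.54). In the list as a whole 4 of 9 were higher and 2 lower with TMM factors, and 3 and 4 with total counts alone.

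Genes of nitrate, sulfate and iron nutrition were lower at 4 °C for 11 of 18 and higher for 6 (13 and 5 with total counts alone). Beside NRT2.1, the dual-affinity nitrate transporter NPF6.3 was found at 196, 193 and 184 CPM in the 4 °C libraries and at 392, 378 and 398 CPM in the 10 °C libraries (-1.03 ± 0.04), whereas the nitrate reductase NIA2 had -0.29 ± 0.04. The sulfate-reducing enzymes went opposite ways, APR1 at -1.52 ± 0.04 and APR2 at 1.35 ± 0.04. The iron reductase of shoots FRO6 stood at 14.3, 15.3 and 14.3 CPM at 4 °C, 56.5, 56.5 and 55.3 CPM at 10 °C and 708 ± 30.4 CPM at 22 °C (-1.94 ± 0.04 between the cold groups). Of 14 root markers, 8 were lower at 4 °C and 2 higher, beside 30.3% and 29.7% over all tested genes. Total counts alone gave 11 lower and 1 higher, beside 10793 and 3423 of the 21293 genes tested. The median of the root markers was -0.44, with values from CASP4 of the endodermis (-3.03 ± 0.27) to RHD2, an oxidase of root hairs (0.90 ± 0.12). In pooled plantlets fewer cells of a type and less RNA per cell cannot be told apart, and the part of root tissue in the lower uptake genes was not tested.

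Of 13 flowering genes 4 were higher at 4 °C and 4 lower with TMM factors, near the shares over all tested genes, 29.7% and 30.3%. Total counts alone gave 4 higher and 6 lower, beside 3423 and 10793 of the 21293 genes tested. FT, the mobile flowering signal, stood at 12.4, 13.8 and 15 CPM at 10 °C, at 2.35, 1.77 and 2.29 CPM at 4 °C and at 1.3 ± 0.0394 CPM at 22 °C, a log2 fold change between the cold groups of -2.68 ± 0.13. SOC1, an integrator that acts after FT, measured 181, 167 and 176 CPM in plantlets at 4 °C and 45.1, 50.6 and 49.1 CPM in plantlets at 10 °C (1.86 ± 0.05). CO, the daylength factor that activates FT, was higher at 4 °C at a low level, 2.12 ± 0.0312 against 0.551 ± 0.247 CPM (1.93 ± 0.30). VIN3, which starts vernalization after long cold, had 1.05, 1.6 and 1.6 CPM in the libraries at 4 °C and 0.0744, 0.0793 and 0 CPM in those at 10 °C (4.65 ± 0.55), a level of few counts, and FLC, its target, did not pass the test (0.32 ± 0.16). FLC did pass, higher at 4 °C, without replicate 2 of the 4 °C group (0.43). The floral repressor SVP had 0.67 ± 0.04 and FLM, its partner, -0.87 ± 0.06.

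**Figure D5:**
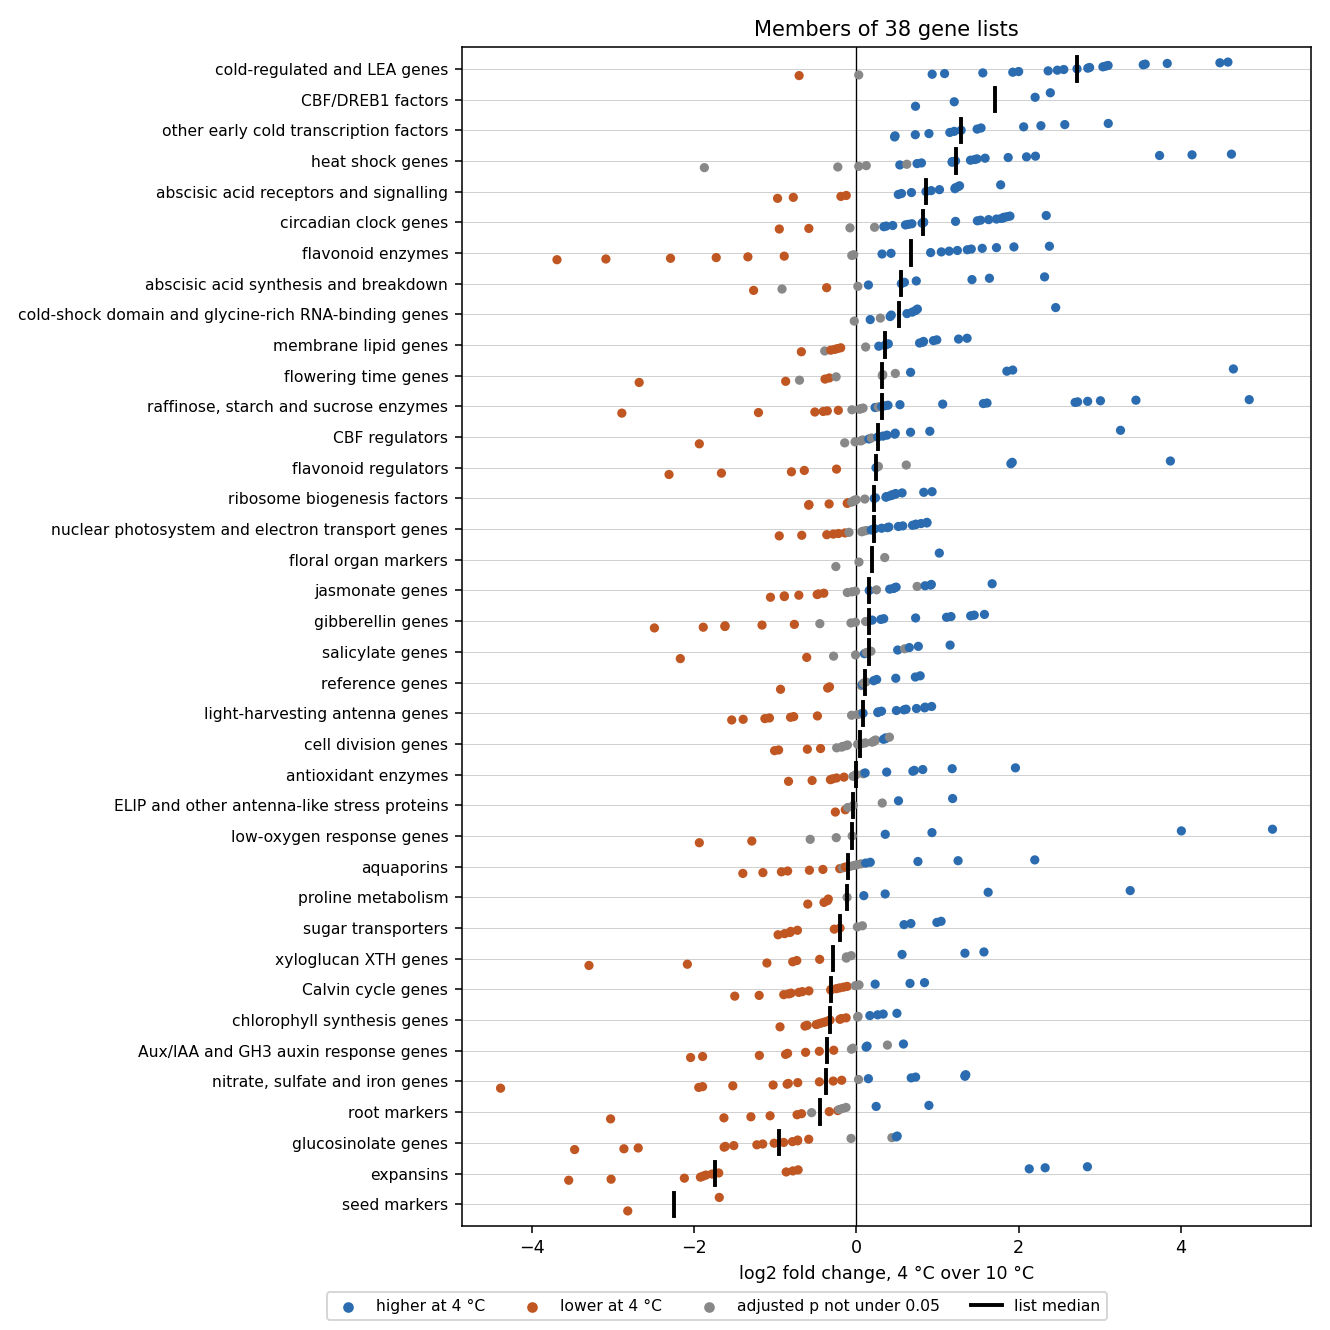
Log2 fold change, 4 °C over 10 °C (x axis), of the tested members of 38 gene lists (rows, ordered by median); blue and orange points passed the adjusted p threshold, grey points did not, and black bars are list medians. RVE8 and GA2OX3, with 0 counts in a group, are not drawn; cold-regulated genes lie farthest to the right, and expansins and glucosinolate genes lie to the left.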

How the data were processed

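Per the labels' protocols, libraries came from total RNA of plantlet pools and were read from both ends at 250 bp. Per the submitters' processing notes, HISAT2 2.2.0, kallisto 0.42.4, edgeR and TAIR10 were used, with no step assigned to each. A deposited table holds estimated counts, some of them fractional, for 56132 transcripts, and another holds the CPM values (counts scaled to 1000000 per library) that follow from them. Recomputing the CPM values from the deposited counts gave a largest difference of 5.46e-11, and they were not used further. Of the transcripts, 41623 belong to 33560 annotated loci and 14509 were assembled without a locus name and stayed out of the gene tests. Each table has 6 columns that match no sample and were not used. Nothing used here says whether counting took account of strand, so overlapping antisense genes cannot be told apart.

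For each locus the estimated counts of its transcripts were added up and rounded. The 21293 genes kept by filterByExpr entered edgeR 4.0.16 under R 4.3.3, with glmQLFit on all 12 libraries (1 mean for each temperature) and glmQLFTest on the contrast, so the spread is estimated over all 4 groups; the common biological coefficient of variation was 0.100. The contrast was 4 °C minus 10 °C: a positive log2 fold change means a higher level at 4 °C. Levels are CPM of annotated counts scaled by TMM factors. A value after ± is the SD over 3 libraries for a level or share and the SE for a log2 fold change, and the SE, which is approximate, was obtained from the log2 fold change and the F statistic. P-values were adjusted by Benjamini-Hochberg over all tested genes, with a threshold of 0.05. Transcript usage was tested with diffSpliceDGE on 10529 transcripts of 4532 genes. The main gene fit and the transcript usage test were first run on simulated counts, and the other steps and settings were not.

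The 38 lists hold 596 genes, and the comparison, the lists and the rule for named genes were chosen with earlier results of these data known. The rule takes the 12 largest rises and 12 largest falls among called genes that average 5 CPM or more and do not overlap between groups, up to 4 called members of each list, and a few fixed markers such as CBF2, RD29A, CCA1 and EXPA8. Members outside the rule are named to show how a list is divided and were picked after their values were seen. Gene names, products and promoter sequences come from the RefSeq annotation of TAIR10.1, matched by locus ID, in which 32818 loci were found. Other settings tried were RLE, upper-quartile and total-count scaling, no filter on low counts, a mean of at least 5 CPM, a fit of the 6 libraries alone, the replicate number as a block, assembled transcripts within library sizes, DESeq2 1.42.0, glmTreat against 2-fold and each library left out in turn. No 2 libraries of a group agreed within sampling noise (chi-square per degree of freedom 4.14 to 10.1), so none repeats the reads of another. Each was treated as a replicate, although this check cannot show that the pools were independent.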

Additional observations from a re-analysis of the deposited data

How the results depend on the processing

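The number of differing genes, 12764, stayed within 1.5 times of itself under every setting tried, from 11709 to 12898 with single libraries left out, with 12262 by DESeq2, 12234 with assembled transcripts counted in the library sizes and 14216 with total counts alone. The split did not: with total counts alone 3423 genes were higher at 4 °C and 10793 lower, 24.1% higher, and at least 2-fold differences numbered 960 higher and 2950 lower. With a mean of at least 5 CPM, the latter were 953 higher, 662 lower and 1615 in all, as fewer genes were tested, and a test against a fold of 2 by glmTreat called 1603 of the 3202. Without single libraries the counts were 5876 to 6423 higher, 5832 to 6573 lower, 1464 to 1513 at least 2-fold higher, 1607 to 1775 at least 2-fold lower, 3095 to 3265 at least 2-fold in all and 48.6% to 50.4% higher. Genes called for transcript usage numbered 69 to 130 without single libraries, the cause of which was not tested beyond the smaller number of samples. Replicate numbers are shared between the groups, but same-numbered libraries did not deviate together (correlations -0.0625, -0.0504 and -0.0191 over 17764 genes). Pairs with other numbers had correlations between -0.056 and 0.108. The libraries were not paired in the main fit, and with 3 per group these values cannot show whether a number marks a shared plate or run. A replicate block gave 12502 differing genes and 92 genes for usage, without LHY (adjusted p = 0.0674). Of 198 named genes that passed the test and were followed, 8 lost their call under some setting that tested them, glmTreat not included. With total counts alone GSTF12, HRE1, LHY, MYB29, MYB51 and RCA did so, and MYBL2 also changed sign (-0.05), the only 1 of the 198 that did. HRE1 was also lost with upper-quartile factors, and TT8 without single libraries. Depth limits genes under about 1 CPM, such as VIN3 and CASP4, where a library holds few counts.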

Other observations

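Of 12 genes often used as references for transcript levels, 6 were higher at 4 °C and 3 lower with TMM factors, and 3 and 7 with total counts alone. GAPC2, a cytosolic glyceraldehyde-3-phosphate dehydrogenase, had 812, 797 and 802 CPM in the 4 °C libraries and 1499, 1545 and 1565 CPM in the 10 °C libraries, a log2 fold change of -0.94 ± 0.03. UBQ10, a polyubiquitin, had a log2 fold change of -0.33 ± 0.04. ACT8, an actin, went the other way with 0.79 ± 0.03, while PP2AA3, a phosphatase subunit, averaged 48.8 ± 2.72 and 45.9 ± 0.999 CPM and did not pass the test with TMM factors (0.09 ± 0.05). It passed, higher at 4 °C, without replicate 3 of the 4 °C group (0.13). With total counts alone it passed as lower at 4 °C (-0.20), and GAPC2, UBQ10 and ACT8 kept their direction and their call.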
